A study of Xenopus tropicalis with 52 samples.

Results

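The transcript levels of 9 transcription factor genes of the animal and epidermal ectoderm were followed through 3 RNA experiments on whole *X. tropicalis* embryos: the forkhead genes *foxi4.2* (Xetro.A03291) and *foxi1* (Xetro.C01264), the AP-2 genes *tfap2a* (Xetro.F00798) and *tfap2c* (Xetro.J00918), the grainyhead-like genes *grhl1* (Xetro.E00379) and *grhl3* (Xetro.B00091), the homeobox gene *dlx3* (Xetro.J00553), and *gata2* (Xetro.D02243) and *gata3* (Xetro.C02032). They were chosen by name and not by a rule on their values, but with earlier results of these data known. They make up 9 of the 28148 genes with exon counts. Whole embryos do not show where a transcript lies, so the ectodermal label could not be checked by position. A lower level can mean fewer cells of a type or less RNA per cell, which cannot be told apart here.

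All embryos were wild type, of an out-bred Nigerian strain. At stage 9+ (late blastula), 8 groups of 3 poly(A) libraries covered loss of function (LOF) of canonical Wnt, Nodal and BMP signaling alone and in every combination. Wnt LOF was made by injecting 5 ng of a morpholino (MO) against β-catenin, Nodal LOF by 100 µM SB431542 and BMP LOF by 10 µM LDN193189, both added from the 8-cell stage, and the control received DMSO. The DMSO embryos carried no MO, so MO injection and loss of Wnt signaling cannot be told apart. In the T-box experiment, 6 groups of 4 poly(A) libraries compared 4x zT LOF with a control MO at stages 10+, 11+ and 12+ (early, mid and late gastrula). The 4x zT LOF embryos received MOs against zygotic VegT and Eomes, at 5 ng apiece, together with 4 MOs against Xbra and Xbra3, at 2.5 ng apiece. The control embryos received 20 ng of control MO. Nascent RNA was enriched from embryos injected with 75 ng of 4sU, a uridine analogue built into new RNA, with 1 enriched and 1 input library each at stage 8+ (the mid-blastula transition, MBT) and stage 10+. A poly(A) library held 10 to 15 embryos and a 4sU sample 30.

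At the animal pole, blastula cells take an ectodermal fate. BMP signaling turns this ectoderm towards epidermis, and its inhibition by organizer antagonists leaves it neural. Wnt and Nodal signals pattern the dorsal side and the mesendoderm, respectively. The 9 factors belong to the network that specifies ectoderm and then epidermis. Foxi4.2 maintains ectodermal fate against mesendoderm in *Xenopus*, AP-2 and grainyhead-like factors activate epidermal genes such as keratins, and Dlx3, Gata2 and Gata3 mark non-neural ectoderm as BMP-responsive factors.

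A stage 9+ library held between 27710453 and 45443446 exon counts, and a T-box library between 26586752 and 60984753. Levels are given in CPM, the count of a gene relative to the TMM-scaled library total, which can be compared between libraries for a gene but not between genes, since gene lengths were not used. Over all poly(A) libraries, exon counts of a member ran from 9714 to 84272 for *tfap2c*, but from 0 to 2896 for *dlx3*. At stage 9+ 8 of 9 members passed the filter on low counts. *dlx3*, at 0 to 0.743 CPM, did not. All 9 passed it in the T-box experiment. Fold changes are log2 values ± standard error. Calls were made with the quasi-likelihood F-test of edgeR, at an adjusted p of at most 0.1. The replicates were clutches, and over all genes libraries of the same number varied together, so ratios between same-numbered libraries are given beside the tests. For most members, though, the lowest replicate number differed with and without the β-catenin MO, as given below. The 7 comparisons with DMSO share its 3 libraries, and the average effects of the 3 signals use the same 24 libraries. The 12 same-numbered pairs of an average come from 3 replicate numbers, each used in 4 backgrounds, and are not 12 independent repeats. Standard errors and p-values of the averages do not measure how an effect varied between clutches.

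At the MBT the members with enough counts, apart from *grhl1*, were already enriched in nascent RNA. To measure this, enriched counts were divided by input counts, with both scaled by size factors. With 1 library of each kind there was no replicate check, and the 95% intervals cover counting error only. Unmapped pairs made up 95.5% of the enriched library at stage 8+ and 91.3% at stage 10+, against 39.5% and 50.4% of the inputs. The ratios thus rest on a small part of the enriched reads. *grhl3*, a factor of epidermal barrier formation in mouse, had 910 enriched against 581 input read pairs at stage 8+, a ratio of 17.4 (15.7 to 19.4). *foxi1*, the forkhead factor of ionocytes, had 40 against 22, a ratio of 20.3 (11.8 to 35.8). Among the 11761 genes measured, *foxi1* stood at percentile 98.9 and *grhl3* at percentile 98.4.

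*tfap2a* followed with a ratio of 11.1 (9.28 to 13.3), from 252 and 253 pairs. *tfap2c* stood at 5.06 (4.65 to 5.49) and *foxi4.2* at 5.06 (2.56 to 9.58), the latter on 15 and 33 pairs. *gata2* had 7 enriched and 12 input pairs, a ratio of 6.50 (2.17 to 17.9). The exception was *grhl1*, an activator of epidermal keratin genes in *Xenopus*: its 1747 input pairs against 159 enriched pairs gave 1.01 (0.856 to 1.19), close to the median of 0.764 over all genes. *dlx3* and *gata3* had no pair in either library at stage 8+. The median over the 7 members measured was 6.50.

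At stage 8+ 7 of the 7 members measured were above a ratio of 1, as were 38.8% of all genes, and at stage 10+ 6 of 7 were, against 40.0% of all genes. Scaled by total counts instead, *grhl1* was at 0.807 at stage 8+, below 1. With size factors, *foxi1* at stage 10+ stood at 9.71 (6.86 to 13.8), *gata2* at 8.97 (6.78 to 11.9) and *grhl3* at 7.84 (7.23 to 8.5). At this stage *grhl1* was at 0.809 (0.644 to 1.01) against a median of 0.684 over 11662 genes. *tfap2a*, *foxi4.2* and *tfap2c* lay at 5.54, 4.97 and 4.74 at stage 10+. There *dlx3* had 0 enriched and 6 input pairs and *gata3* 1 and 9, too few for a ratio. In total RNA the input level of *gata2* at stage 10+ was 10.3-fold (5.62 to 20.7) that at stage 8+ and the level of *foxi4.2* 7.21-fold (4.94 to 10.8). *foxi1*, *tfap2a* and *grhl3* stood at 3.56, 3.19 and 2.57 times their earlier level. *tfap2c* was at 0.955 (0.888 to 1.03), and *grhl1* at 0.576 (0.528 to 0.628), where the median gene was at 1.03. *grhl1* was thus the member with a ratio near that of the median gene at both stages and with a lower input level at the later one.

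*foxi4.2* was the member with the clearest response to Wnt LOF. With the β-catenin MO its transcript level was on average 2.51-fold higher, and it was higher in 12 of 12 pairs of same-numbered libraries. Replicates 1, 2 and 3 held 292, 238 and 136 CPM in DMSO and 512, 701 and 799 CPM in Wnt LOF. The libraries of Nodal LOF stood at 386, 295 and 209 CPM, and those of Wnt/Nodal LOF at 439, 777 and 891 CPM. In both comparisons every injected library was above every uninjected one. For Wnt LOF and DMSO 6.79% of all genes had groups without overlap. For Wnt/Nodal LOF and Nodal LOF this share was not counted.

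With the BMP inhibitor the levels of *foxi4.2* were lower on either side of the injection. BMP LOF libraries held 166, 180 and 94.0 CPM and Wnt/BMP LOF libraries 229, 429 and 565 CPM. Nodal/BMP LOF gave 291, 248 and 136 CPM, and Wnt/Nodal/BMP LOF 328, 446 and 579 CPM. The 8 group means ran from 147 CPM in BMP LOF to 703 CPM in Wnt/Nodal LOF. Neighbors in this order overlapped in 7 of 7 cases.

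Against DMSO (222 ± 79.3 CPM, SD, n = 3), *foxi4.2* rose to 671 ± 146 CPM in Wnt LOF, a change of 1.59 ± 0.39 (adjusted p = 0.0651). It was 1 of 8 members called there, where 1.15% of all genes were called. With the replicate number as a block 3 members were called (background 3.97%), as *tfap2c* (adjusted p = 0.0264) and *grhl1* (adjusted p = 0.0607) joined. In Wnt/Nodal LOF *foxi4.2* rose by 1.66 ± 0.39 (adjusted p = 0.0278), again the sole member called (background 2.39%), with *tfap2c* added under the block (adjusted p = 0.0248, background 6.06%). In Wnt/BMP LOF its change of 0.88 ± 0.38 missed the threshold (adjusted p = 0.58), as did 1.02 ± 0.38 in the loss of all signals (adjusted p = 0.334). Both calls against DMSO were lost without replicate 2, at 1.61 (adjusted p = 1.0) and 1.63 (adjusted p = 0.824), and without replicate 3, at 1.2 each (adjusted p = 0.31 and 0.18).

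Averaged over the 4 backgrounds, Wnt LOF raised 4 of 8 members, against a background of 5.69% of genes called in either direction and 2.01% called higher. *foxi4.2* rose by 1.33 ± 0.19 (adjusted p = 0.000169), *gata3* by 1.38 ± 0.35 (adjusted p = 0.0274), *tfap2a* by 0.53 ± 0.14 (adjusted p = 0.0299) and *tfap2c* by 0.35 ± 0.11 (adjusted p = 0.0973). *grhl1* at 0.25 ± 0.09 and *grhl3* at 0.43 ± 0.17 passed only with the replicate block (adjusted p = 0.0105 and 0.0663), which called 6 of 8 members (background 16%). *foxi1* at 0.60 ± 0.39 and *gata2* at 0.15 ± 0.40 passed in neither fit. The median over the members was 0.48, and 0 over all genes tested.

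The ratios of injected to uninjected libraries of the same number differed between the replicate numbers. They take a number to mark the same clutch with and without the MO, which the labels do not state. For *foxi4.2* the ratios were 1.13 to 1.75 in replicate 1, 1.80 to 2.95 in replicate 2 and 4.25 to 6.01 in replicate 3, over the 4 backgrounds. For *foxi1* they were 0.297 to 0.726, 1.71 to 2.17 and 4.19 to 7.86, so that replicate 1 went down and the others up. For *gata2* they were 0.142 to 0.347 in replicate 1, 0.691 to 2.02 in replicate 2, on either side of 1, and 1.28 to 17.1 in replicate 3. Without the MO, replicate 3 was the lowest of its group in 27 of 32 sets of a member and a group. With the MO, replicate 1 was the lowest in 28 of 32. In *grhl1* replicate 1 was lowest in 4 of 4 groups without the MO and in 3 of 4 with it. In *tfap2c* replicate 3 was lowest in 4 of 4 and 3 of 4. The sets share libraries and are not independent, and the same count was not made over all genes.

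The average for *foxi4.2* was 0.87 without replicate 3 (adjusted p = 0.0144) and 1.75 without replicate 1 (adjusted p = 0.000457). *tfap2a* lost its call without replicate 2 (0.54, adjusted p = 0.482) or replicate 3 (0.24, adjusted p = 0.247), and *gata3* likewise (1.38, adjusted p = 0.416, and 0.77, adjusted p = 0.329). *tfap2c* lost it without replicate 1 (0.49, adjusted p = 0.115) or replicate 2 (0.36, adjusted p = 0.568). Without replicate 1 the average called 6 of 8 members, where leaving out a replicate called 2.09% to 9.18% of all genes. As *tfap2c* was not among them, at least 1 of *foxi1* and *gata2* was.

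**Figure D1:**
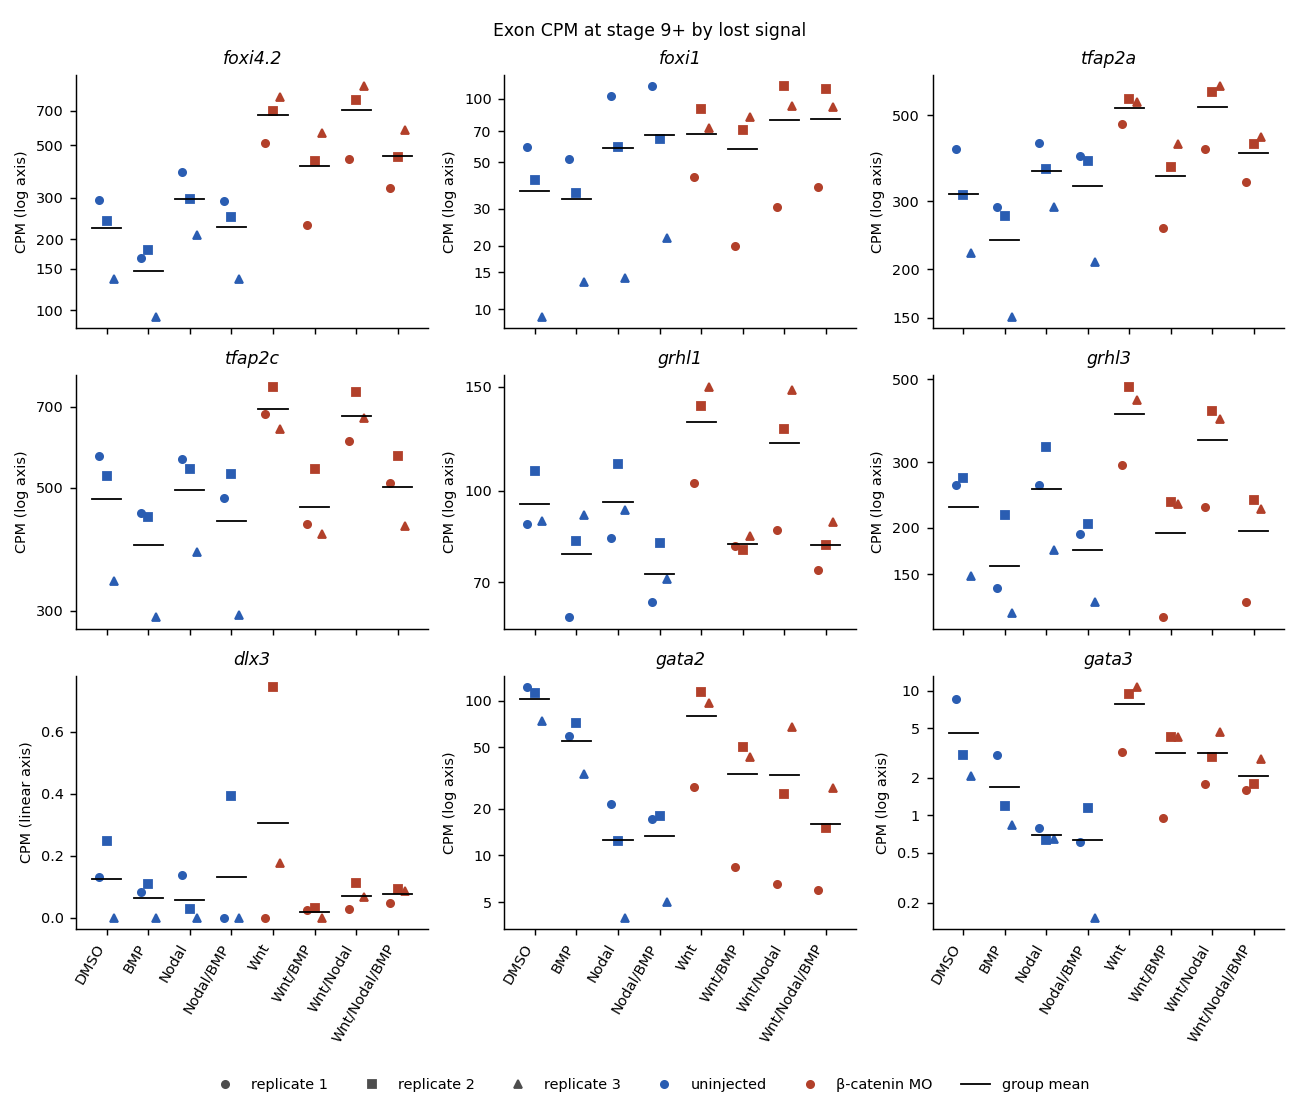
Exon CPM of each member in the 24 stage 9+ libraries by lost signal, on log axes except for *dlx3*; symbols mark the replicate number, color the β-catenin MO, and lines the group means. *foxi4.2* stood at 439 to 891 CPM in Wnt LOF and Wnt/Nodal LOF and at 136 to 386 CPM in DMSO and Nodal LOF.

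The AP-2 factors act in epidermis, neural border and neural crest. *tfap2a* measured 410, 311 and 220 CPM in DMSO and 476, 551 and 542 CPM in Wnt LOF, without overlap. *tfap2c* measured 571, 524 and 339 CPM in DMSO and 679, 761 and 638 CPM in Wnt LOF, also without overlap. Such separation was seen in Wnt LOF for 4 of 8 members, *foxi4.2*, *tfap2a*, *tfap2c* and *grhl3*, and for 6.79% of all genes. In Wnt/Nodal LOF the groups were separate for 3 of 8 members and 7.89% of genes, with *foxi4.2* and *tfap2c* above DMSO and *gata2* below it. The AP-2 genes resemble each other in sequence, and how many reads they shared was not analysed here.

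With the BMP inhibitor both AP-2 genes had lower levels. *tfap2a* measured 289, 274 and 151 CPM in BMP LOF and 256, 368 and 422 CPM in Wnt/BMP LOF. *tfap2c* measured 450, 442 and 292 CPM in BMP LOF and 430, 540 and 412 CPM in Wnt/BMP LOF. *tfap2c* was lower in 12 of 12 same-numbered pairs, with a median ratio of 0.779, and *tfap2a* in 11 of 12, with a median ratio of 0.736. In Nodal LOF *tfap2a* stood at 424, 364 and 290 CPM and *tfap2c* at 564, 540 and 383 CPM, within 0.857 to 1.39 and 0.894 to 1.2 times the paired library over the 4 backgrounds. Nodal/BMP LOF held *tfap2a* at 392, 381 and 209 CPM and *tfap2c* at 479, 530 and 295 CPM. In Wnt/Nodal LOF they read 408, 576 and 595 CPM and 608, 745 and 667 CPM, and in Wnt/Nodal/BMP LOF 337, 422 and 440 CPM and 509, 570 and 426 CPM.

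The grainyhead-like genes *grhl3* and *grhl1* also had lower levels under the BMP inhibitor in most pairs. *grhl3* had 260, 272 and 148 CPM in DMSO and 138, 216 and 118 CPM in BMP LOF. With the MO it had 294, 478 and 441 CPM in Wnt LOF and 115, 234 and 231 CPM in Wnt/BMP LOF. With SB431542 it went from 260, 330 and 174 CPM to 192, 204 and 126 CPM, and with both SB431542 and the MO from 227, 410 and 392 CPM to 126, 237 and 225 CPM. The level was lower in 12 of 12 same-numbered pairs, at 0.391 to 0.799 of the paired library.

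*grhl1* had 88.0, 108 and 89.0 CPM in DMSO and 61.1, 82.2 and 91.0 CPM in BMP LOF. It had 103, 139 and 150 CPM in Wnt LOF and 80.5, 79.4 and 83.7 CPM in Wnt/BMP LOF. These did not overlap, but the share of all genes so separated was not counted for this pair. From Nodal LOF to Nodal/BMP LOF it moved from 83.2, 111 and 92.8 CPM to 64.7, 81.6 and 70.9 CPM. From Wnt/Nodal LOF to the loss of all signals it moved from 85.7, 127 and 148 CPM to 73.5, 80.9 and 88.4 CPM. It was lower in 11 of 12 pairs.

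Averaged over the 4 backgrounds, all 8 members measured had a value below 0 under BMP LOF, with a median of -0.54 against 0 for all genes tested. *grhl1* fell by 0.49 ± 0.09 on the log2 scale (adjusted p = 0.0708) and was 1 of 8 members called, where 0.0875% of genes were and 0.05% were lower. The call was lost without replicate 2 or replicate 3 (-0.44 and -0.48, both adjusted p = 1.0). *grhl3* at -0.74 ± 0.17 and *tfap2c* at -0.37 ± 0.11 passed with the replicate block only (adjusted p = 0.0156 and 0.00851), giving 3 of 8 (background 1.16%). *foxi4.2* at -0.59 ± 0.19, *tfap2a* at -0.38 ± 0.14, *gata2* at -0.77 ± 0.40, *gata3* at -0.86 ± 0.35 and *foxi1* at -0.04 ± 0.39 passed in neither fit.

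Since the clutch pattern differed with injection, the replicate block was also set separately within injected and uninjected libraries, an alternative chosen after seeing the data. It called 7 of 8 members lower in BMP LOF averaged over the backgrounds, where 9.32% of all genes were called in either direction. Its small standard errors likewise do not measure how the effect varied between clutches. *grhl3* fell by 0.74 ± 0.04 (adjusted p = 2.11e-09), *foxi4.2* by 0.60 ± 0.05 (adjusted p = 2.35e-07) and *tfap2c* by 0.38 ± 0.03 (adjusted p = 1.75e-07). *grhl1*, *tfap2a*, *gata2* and *gata3* followed with adjusted p from 1.04e-05 to 0.0135. *foxi1* stayed at -0.01 ± 0.09 (adjusted p = 0.957), higher in 6 and lower in 6 of 12 pairs.

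BMP LOF against DMSO alone gave no call by edgeR among the 8 members, with 0 of them at an unadjusted p under 0.05 and 0 called by DESeq2. Over all genes edgeR also called 0, a background of 0%, with 217 at an unadjusted p under 0.05, and DESeq2 called 2. The means of all 8 members were below those of DMSO, as for *gata3* with 1.70 against 4.55 CPM and *tfap2c* with 394 against 478 CPM. Only in *gata2* did the ranges not overlap, which was so for 3.99% of all genes.

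**Figure D2:**
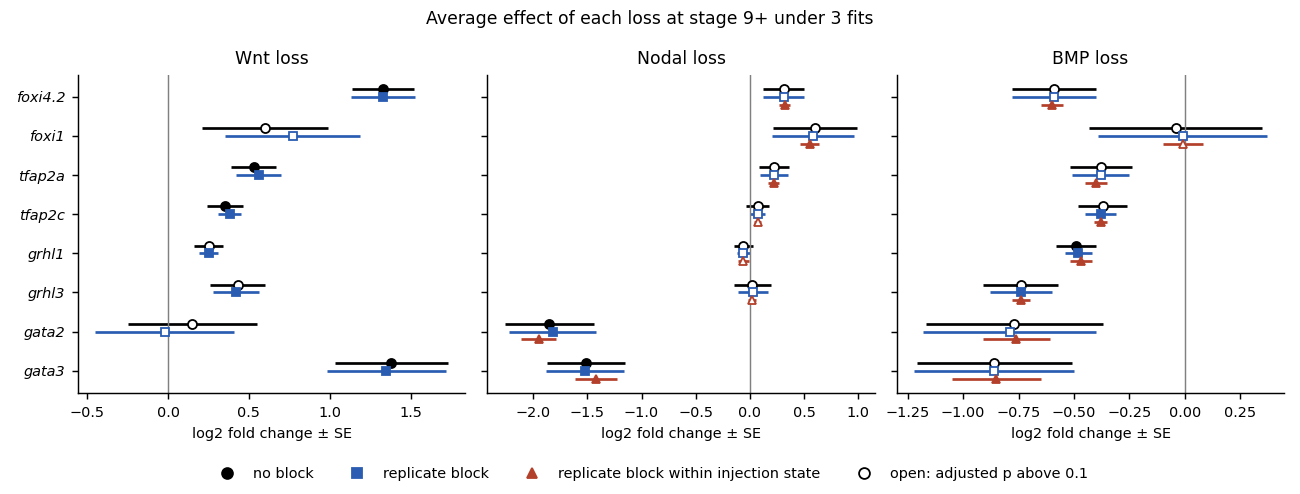
Average log2 fold change of each member for loss of Wnt, Nodal and BMP signaling over 4 backgrounds, with standard errors, from the fit without a block, with the replicate block, and for Nodal and BMP with the block set within injected and uninjected libraries. All 8 members lay below 0 for BMP, and *gata2* and *gata3* lay at -1.85 and -1.51 for Nodal.

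*gata2* and *gata3* were the members that fell in Nodal LOF. *gata2*, a factor of ventral ectoderm and blood, measured 122, 112 and 73.7 CPM in DMSO and 21.5, 12.4 and 3.96 CPM in Nodal LOF. Nodal/BMP LOF gave 17.2, 17.9 and 5.03 CPM, against 59.1, 72.1 and 33.8 CPM in BMP LOF. In both comparisons the ranges did not overlap. This held for 5.87% of all genes between Nodal LOF and DMSO, and was not counted between Nodal/BMP LOF and BMP LOF.

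With the MO the levels of *gata2* spread more widely. Wnt LOF libraries held 27.7, 114 and 97.1 CPM and Wnt/Nodal LOF libraries 6.50, 25.0 and 67.5 CPM. Wnt/BMP LOF gave 8.37, 49.8 and 43.2 CPM, and the loss of all signals 5.96, 15.0 and 27.2 CPM. The groups overlapped here, but in all 12 pairs with the same number and background *gata2* was lower with SB431542, at 0.0537 to 0.712 of the paired library and a median of 0.241.

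*gata3*, a related factor of non-neural ectoderm, was low at this stage. It measured 8.54, 3.03 and 2.08 CPM in DMSO and 0.798, 0.636 and 0.646 CPM in Nodal LOF, and 3.06, 1.19 and 0.841 CPM in BMP LOF against 0.615, 1.15 and 0.151 CPM in Nodal/BMP LOF. With the MO it measured 3.23, 9.44 and 10.7 CPM in Wnt LOF, 1.78, 2.95 and 4.71 CPM in Wnt/Nodal LOF, 0.949, 4.26 and 4.27 CPM in Wnt/BMP LOF and 1.60, 1.78 and 2.83 CPM in the loss of all signals. It was lower with SB431542 in 11 of 12 pairs.

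Averaged over the 4 backgrounds, *gata2* fell by 1.85 ± 0.41 (adjusted p = 0.0233) and *gata3* by 1.51 ± 0.36 (adjusted p = 0.0366) in Nodal LOF, 2 of 8 members, where 1.68% of genes were called and 1.56% were lower. Without replicate 2 or 3 *gata2* was at -1.60 (adjusted p = 1.0) and -2.08 (adjusted p = 0.112), and *gata3* lost its call whichever replicate was left out (adjusted p from 0.166 to 0.69). Among the uninjected groups alone, an alternative added after seeing the data, the values were -2.53 (adjusted p = 0.0429) and -2.06 (adjusted p = 0.0664). Among the injected groups they were -1.17 and -0.96 (adjusted p = 1.0 for each). The difference between these averages was not itself tested. The Wnt by Nodal interaction was tested in the groups without BMP loss only, where *gata2* had 1.75 ± 1.13 and *gata3* 1.39 ± 0.98 (adjusted p = 1.0).

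The other members had averages in Nodal LOF from -0.06 ± 0.09 for *grhl1* to 0.60 ± 0.39 for *foxi1*, all with adjusted p = 1.0. *foxi4.2*, *foxi1* and *tfap2a* were higher with SB431542 in 11 of 12 pairs each, with median ratios of 1.28, 1.53 and 1.16. The block within injected and uninjected libraries called these rises of 0.32 ± 0.05 (adjusted p = 0.000201), 0.55 ± 0.09 (adjusted p = 0.000196) and 0.22 ± 0.05 (adjusted p = 0.00312), and 5 of 8 members in all (background 9.81%).

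Against DMSO alone, edgeR called no member in Nodal LOF (background 0.681%), in Nodal/BMP LOF (0.575%), in Wnt/BMP LOF (1.74%) or in the loss of all signals (2.99%). At an unadjusted p under 0.05 there were 2, 3, 1 and 2 members, and DESeq2 called 2, 2, 0 and 1. DESeq2 had a background of 1.42% for Nodal LOF, of 1.36% with BMP lost as well, and of 3.97% in the loss of all signals. In Nodal LOF the groups did not overlap for *gata2* and *gata3*, 2 of 8 members against 5.87% of genes. *gata2* was at -3.02 ± 0.86 (adjusted p = 0.216) and *gata3* at -2.71 ± 0.74 (adjusted p = 0.18, and 0.0965 with the replicate block, background 2.28%). In Nodal/BMP LOF the replicate block called both, with adjusted p = 0.0905 and 0.0683 (background 2.82%). In the loss of all signals it called *gata2* at an adjusted p of 0.0563 (background 8.14%). The 3 interactions between pairs of signals called 0 of 8 members by edgeR or DESeq2, with 0 at an unadjusted p under 0.05 and a background of 0%.

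**Figure D3:**
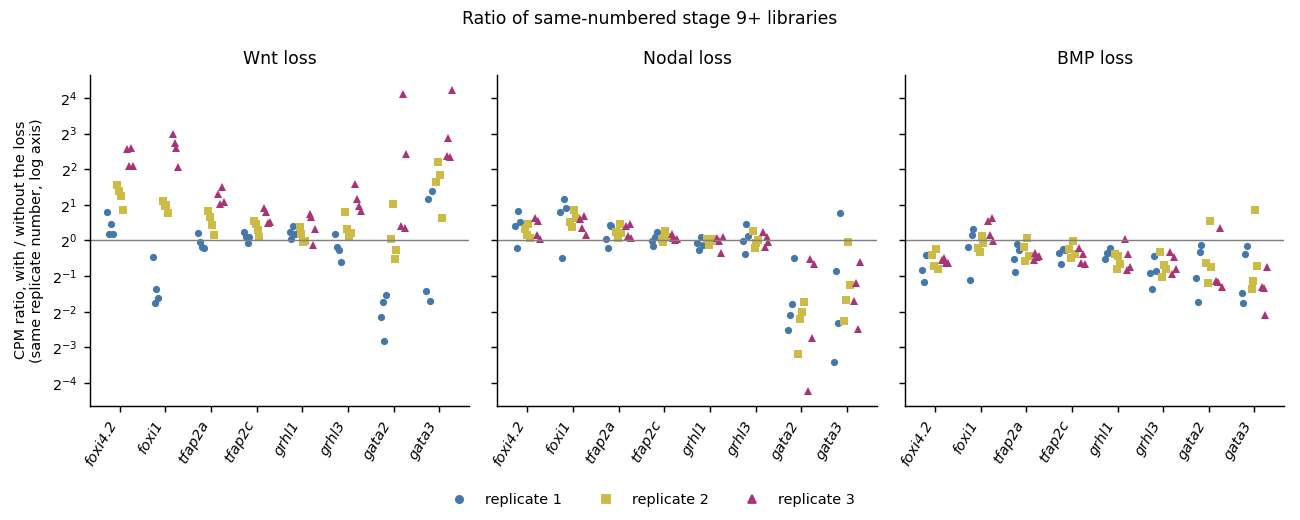
Ratio of each stage 9+ library with a signal lost to the library of the same replicate number and background with that signal intact, on a log axis, for loss of Wnt, Nodal and BMP. All 12 ratios lay above 1 for *foxi4.2* under Wnt LOF, and below 1 for *gata2* under Nodal LOF and for *foxi4.2*, *tfap2c* and *grhl3* under BMP LOF.

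*foxi1*, like *gata2* and *gata3*, varied widely between clutches, with median coefficients of variation within a group of 57.1%, 61.7% and 56.0%. In DMSO it measured 58.8, 41.1 and 9.23 CPM, in Nodal LOF 103, 59.0 and 14 CPM and in Wnt LOF 42.7, 89.3 and 72.6 CPM. That of *foxi1* ran from 34.6% to 75.8%, against 2.75% to 26.3% for *grhl1*. The 24 libraries ran from 9.23 to 115 CPM, with overlap between all neighbors in the order of the group means. With all replicates, the fit without a block, the replicate block, DESeq2 and intron counts did not call *foxi1* at stage 9+. The Nodal average with the block within injected and uninjected libraries called it.

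Genes of related lists showed which changes were shared. In Wnt LOF, averaged over the backgrounds, 9 of 17 BMP and ventral response genes rose and 1 fell, where 5.69% of all genes were called and 2.01% were higher. Among those that rose were the secreted BMP regulator *szl* (2.28 ± 0.32, adjusted p = 1e-04) and the pseudoreceptor *bambi* (1.09 ± 0.12, adjusted p = 6.85e-06). The gene that fell was *msx2* (-1.54 ± 0.36, adjusted p = 0.0134). All 11 organizer genes tested fell, and their summed level went from 727 to 1172 CPM in DMSO to 9.50 to 59.4 CPM in Wnt LOF. Of 11 epidermal structural and adhesion genes, only the keratin *krt18* rose (0.15 ± 0.03, adjusted p = 0.0109). The endodermal paralogs *gata4*, *gata5* and *gata6* fell by 1.29, 0.84 and 0.81.

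In Nodal LOF, averaged over the backgrounds, 4 of 11 paralogs fell, where 1.68% of all genes were called and 1.56% were lower. The AP-2 gene *tfap2e* fell most, by 2.3 ± 0.5 (adjusted p = 0.0188). The same paralogs *gata4*, *gata5* and *gata6* fell by 1.77, 1.58 and 1.40 (adjusted p from 0.00164 to 0.00473), beside *gata2* and *gata3*, and 9 of 10 endoderm markers fell. The summed level of the 10 endoderm markers was 1622 to 2567 CPM in DMSO and 299 to 578 CPM in Nodal LOF. The part of that layer in the levels of *gata2* and *gata3* was not tested. In BMP LOF, likewise averaged, 4 of 17 response genes fell, where 0.0875% of all genes were called. They were *ventx1.2* (by 1.1), *ventx1.1* (by 0.94), *smad7* (by 0.71) and *bambi* (by 0.64). The 11 paralogs had a median of -0.42 and the 11 epidermal genes one of -0.06, with none called.

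In control MO embryos all 9 members rose from stage 10+ to 11+, where 57.7% of genes were called and 28.5% were higher. *dlx3*, a BMP-responsive homeobox gene of non-neural ectoderm, went from 0.433, 1.08, 2.41 and 2.15 CPM in replicates 1 to 4 to 14.4, 18.3, 24.5 and 25.4 CPM, a change of 3.75 ± 0.36 (adjusted p = 1.91e-08). *gata2* rose by 1.71 ± 0.09, *grhl3* and *gata3* by 1.35 each, *foxi4.2* by 1.12, *grhl1* by 1.08, *tfap2a* by 0.98 and *tfap2c* by 0.81. *foxi1* rose least, by 0.60 ± 0.28 (adjusted p = 0.0777), and lost its call without replicate 3 (0.54, adjusted p = 0.114) or replicate 4 (0.32, adjusted p = 0.472).

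From stage 11+ to 12+ the members diverged: 7 rose and 2 fell, where 72.2% of genes were called, 36.3% higher and 36% lower. *foxi4.2* fell by 1.75 ± 0.08 (adjusted p = 1.32e-13), from 450, 432, 427 and 433 CPM to 134, 131, 131 and 122 CPM. *tfap2a* fell by 0.24 ± 0.08 (adjusted p = 0.00831), from 529, 600, 619 and 699 CPM to 501, 521, 526 and 520 CPM. The others rose, *gata3* most, by 2.28 ± 0.30, from 30.7, 35.2, 58.3 and 48.8 CPM to 180, 205, 216 and 238 CPM. *dlx3* rose by 1.40, *foxi1* by 1.28, *grhl3* by 0.72, *gata2* by 0.64, *grhl1* by 0.60 and *tfap2c* by 0.45. In intron counts 5 of these 7 rises had the opposite sign (*dlx3*, *tfap2c*, *grhl3*, *gata2* and *grhl1*), as had that of *tfap2a* from stage 10+ to 11+.

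In exon counts the effect of 4x zT LOF on the members turned with the stage. At stage 10+ it was called for 3 of 9 (background 17.4%). *grhl1* rose by 0.51 ± 0.08 (adjusted p = 7.51e-05), from 81.6, 77.4, 69.2 and 68.9 CPM with control MO to 99.5, 110, 105 and 108 CPM. *gata2* fell by 0.52 ± 0.09 (adjusted p = 0.000353), from 143, 146, 146 and 189 CPM to 124, 99.3, 101 and 111 CPM. In both genes the groups did not overlap, which held for 2 of 9 members and 16.3% of all genes. In intron counts *gata2* was at -0.29 and lost its call (adjusted p = 0.109).

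*foxi4.2* fell by 0.21 ± 0.07 at this stage (adjusted p = 0.064), with 171, 158, 189 and 172 CPM against 182, 186, 209 and 223 CPM, which overlapped. Its call was lost without replicate 2, 3 or 4 (adjusted p from 0.125 to 0.346). With the replicate block 7 of 9 members were called (background 33.3%), with *foxi1*, *dlx3* and *gata3* at -0.65, -0.68 and -0.57 and *tfap2c* at 0.19 joining (adjusted p from 0.0355 to 0.0902).

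At stage 11+ all 9 members lay below 0 in exon counts, and 4 of 9 fell (background 33.7%, with 16.8% lower). *gata2* fell by 0.70 ± 0.09 (adjusted p = 5.87e-06), to 314, 345, 318 and 279 CPM from 447, 519, 491 and 584 CPM, without overlap (1 of 9 members and 24.9% of genes). *gata3* fell by 0.81 ± 0.29 (adjusted p = 0.0395), to 23.2, 23.8, 37.1 and 14.6 CPM, *grhl3* by 0.27 ± 0.09 (adjusted p = 0.033), to 414, 510, 442 and 405 CPM from 438, 563, 534 and 606 CPM, and *tfap2a* by 0.21 ± 0.08 (adjusted p = 0.0491), to 484, 553, 563 and 519 CPM. These 3 overlapped with the control, and each was lower in 4 of 4 pairs.

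The lower calls at stage 11+ depended on single clutches and on the kind of read. Without replicate 4 *gata3* was at -0.56 (adjusted p = 0.22), *grhl3* at -0.17 (adjusted p = 0.388) and *tfap2a* at -0.13 (adjusted p = 0.322), and *gata2* alone stayed called. *grhl3* and *tfap2a* were also lost without replicate 3 (adjusted p = 0.155 and 0.139), and *gata3* and *tfap2a* without replicate 2 (adjusted p = 0.107 and 0.115). *dlx3*, with 10.4, 13.6, 15.2 and 12.3 CPM in 4x zT LOF, was at -0.68 ± 0.31 (adjusted p = 0.117). With the replicate block it fell (adjusted p = 0.0133) and 5 of 9 members were called (background 50.1%). *foxi4.2* was at -0.03 ± 0.07, with 409, 459, 455 and 379 CPM. Intron counts had *grhl3* at 0.17 and *tfap2a* at 0.21, opposite in sign, and *gata2* at -0.22, where its call was lost (adjusted p = 0.183). They also had *foxi4.2* at 0.19, and called *tfap2c* at 0.38 and *grhl1* at 0.43 higher (adjusted p = 0.0476 and 0.0491). *gata3* at -1.05 (adjusted p = 0.00554), *dlx3* at -0.24 and *foxi1* at -0.08 stayed below 0 in intron counts.

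At stage 12+ all 9 members lay above 0, and 6 of 9 rose (background 37.8%, with 21.4% higher). *foxi4.2* rose most, by 0.95 ± 0.08 (adjusted p = 6.07e-09), to 233, 267, 268 and 235 CPM in 4x zT LOF, a mean of 251 ± 19.6 CPM against 130 ± 5.20 CPM (SD, n = 4). Relative to stage 11+ its level was lower with the control MO and in 4x zT LOF alike, and at stage 12+ it was 1.94-fold higher in the latter. The groups were separate in 5 of 9 members, *foxi4.2*, *tfap2a*, *tfap2c*, *grhl3* and *gata2*, and in 33.1% of all genes.

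*tfap2a* rose by 0.41 ± 0.08 (adjusted p = 0.000329), to 610, 696, 736 and 704 CPM from 501, 521, 526 and 520 CPM. *tfap2c* rose by 0.37 ± 0.08 (adjusted p = 0.00225), to 1582, 1767, 1596 and 1593 CPM from 1119, 1322, 1230 and 1403 CPM. *gata2*, lower at both earlier stages, rose by 0.26 ± 0.09 (adjusted p = 0.0303), to 959, 932, 966 and 945 CPM from 802, 780, 793 and 797 CPM. *grhl1* rose by 0.21 ± 0.08 (adjusted p = 0.0366) and *grhl3* by 0.23 ± 0.09 (adjusted p = 0.0683), while *foxi1* at 0.16, *dlx3* at 0.07 and *gata3* at 0.05 did not pass.

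Of these calls, *foxi4.2*, *tfap2a* and *tfap2c* stayed called whichever of the 4 replicates was left out. *grhl3* lost its call whichever replicate was left out (adjusted p from 0.115 to 0.226) and with DESeq2 (adjusted p = 0.125), *gata2* without replicate 2 or 3 (adjusted p = 0.107 and 0.153), and *grhl1* without replicate 1, 2 or 3 (adjusted p from 0.166 to 0.211).

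**Figure D4:**
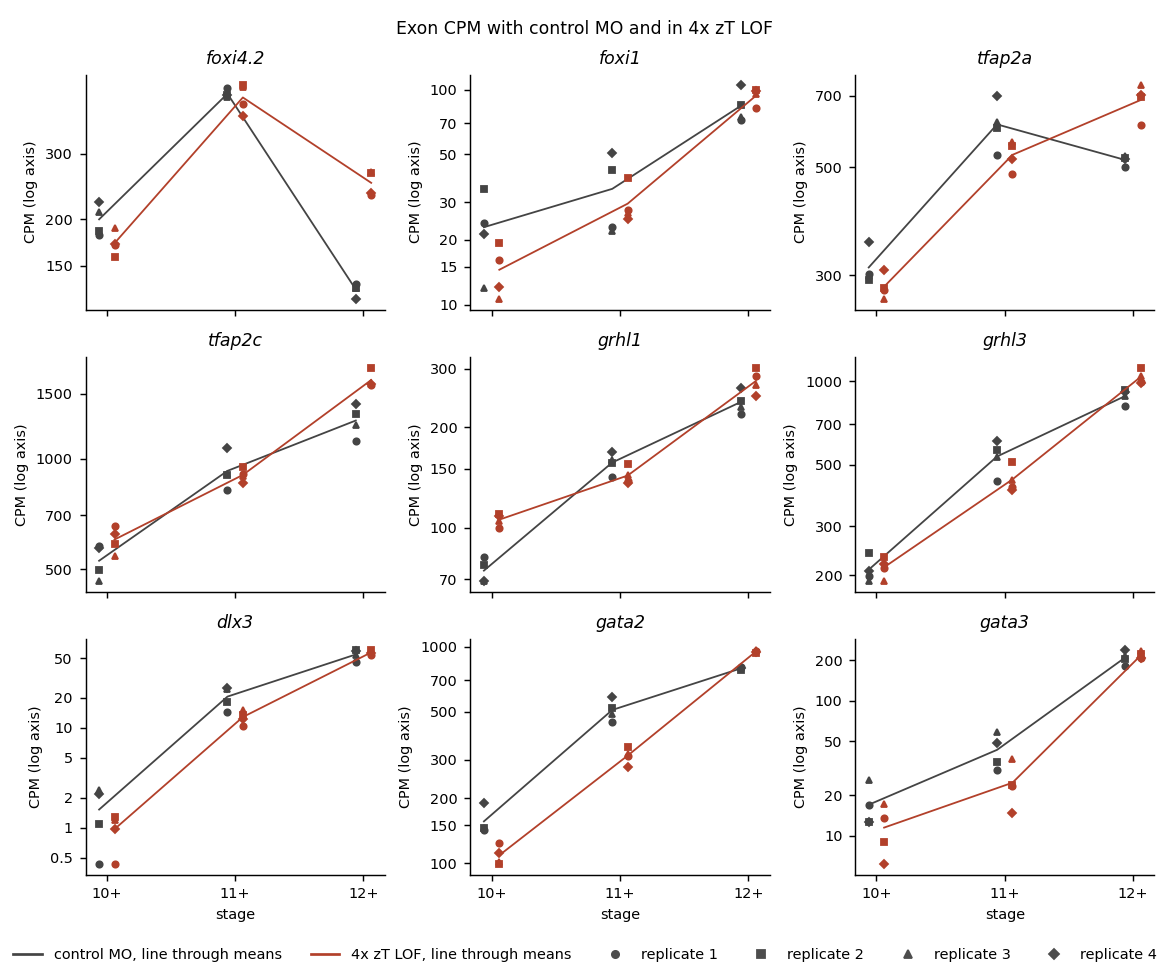
Exon CPM of the members at stages 10+, 11+ and 12+ with control MO and in 4x zT LOF, 4 libraries each, on log axes with lines through the group means. *foxi4.2* fell to 122 to 134 CPM in the controls at stage 12+ but stood at 233 to 268 CPM in 4x zT LOF, and *gata2* was lower in 4x zT LOF at the earlier stages and higher at stage 12+.

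The test of the stage dependence itself called 6 of 9 members (background 27.1%): *foxi4.2* (adjusted p = 2.63e-07), *gata2* (adjusted p = 2.96e-05), *tfap2a* (adjusted p = 0.000483), *grhl1* (adjusted p = 0.000602), *grhl3* (adjusted p = 0.0237) and *tfap2c* (adjusted p = 0.0514). With the replicate block it called all 9 (background 48.6%). Averaged over the stages, 4 of 9 were called (background 41.9%): *tfap2c* and *grhl1* rose by 0.17 ± 0.06 and 0.19 ± 0.07, and *gata2* and *gata3* fell by 0.32 ± 0.10 and 0.44 ± 0.18. In intron counts *gata2* was at -0.02 in this average (adjusted p = 0.903), and *gata3* stayed lower at -0.53 (adjusted p = 0.0124). *tfap2c* and *grhl1* stayed higher there, and *tfap2a* at 0.36 and *grhl3* at 0.26 were called higher as well (adjusted p = 0.0137 and 0.0087). By stage, intron values were 0.53, 0.38 and 0.61 for *tfap2c* and 0.67, 0.43 and 0.66 for *grhl1*. In the stage dependence, *tfap2c*, *grhl3* and *grhl1* lost their calls in intron counts (adjusted p from 0.75 to 0.815). Leaving out a replicate lost *tfap2c* (without replicate 1 or 2), *grhl1* (without 1 or 2) and *gata3* (without 2 or 4) in the average, and *tfap2c* (without 2, 3 or 4) and *grhl3* (without 3 or 4) in the stage dependence, with adjusted p from 0.105 to 0.23. The replicate block added *dlx3* at -0.37 (adjusted p = 0.057, background 54.7%). *foxi4.2* was at 0.23 ± 0.12 (adjusted p = 0.126) in this average, with -0.21, -0.03 and 0.95 at the 3 stages.

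Other ectodermal lists in the T-box experiment gave the following counts. At stage 11+, where 16.8% of all genes were called lower, 7 of 14 epidermal structural and adhesion genes fell. Among them were the keratin *krt19*, by 1.72 ± 0.42, and the epidermal regulator *tp63*, by 1.36 ± 0.33. Of 6 ciliated cell and ionocyte factors 5 fell there, *foxj1* by 1.55 and *foxn4* by 1.45. At stage 12+ 1 of the 14 epidermal genes rose and 2 fell, with a median of -0.13 against 0.03 for all genes. Of the 6 ciliated cell and ionocyte factors 2 rose at stage 12+ and 0 fell. BMP and ventral response genes fell in 12 of 17 cases at stage 11+ (background 16.8% lower). They rose in 8 of 17 at stage 12+ (background 21.4% higher), when *szl* rose by 0.77 and *ventx1.2* by 0.57. Mesoderm markers fell in 7 of 11 cases at each stage, and 1, 2 and 3 rose. At these stages 17.4%, 33.7% and 37.8% of all genes were called in either direction. Their summed level was higher in 4x zT LOF than with control MO at stage 11+, 3289 to 3842 against 2148 to 2834 CPM. It was also higher at stage 12+, 1997 to 3076 against 1261 to 1724 CPM, and overlapped at stage 10+, 2207 to 2648 and 2220 to 2772 CPM. *eomes* rose by 1.48 at stage 11+, and *eomes* and *vegt* by 1.60 and 1.80 at stage 12+. Of 10 endoderm markers 7 rose and 1 fell at stage 12+ (background 37.8%). The part of these layers in the results on the members was not tested. *eomes* and *vegt* were targets of the MOs, which block splicing or translation, so their RNA level does not check the knockdown.

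Among the paralogs, *foxi2*, a forkhead relative of *foxi4.2*, rose in 4x zT LOF at every stage, by 0.77 ± 0.18, 1.61 ± 0.19 and 2.37 ± 0.22. *tfap2e*, an AP-2 relative of *tfap2a* and *tfap2c*, fell by 0.83 ± 0.19 at stage 10+ and by 1.22 ± 0.2 at stage 12+. *foxi4.1*, which neighbors *foxi4.2* and resembles it in sequence, fell by 0.92 ± 0.32 at stage 10+ and 1.13 ± 0.25 at stage 11+. At stage 12+ it was at 0.49 ± 0.25 (adjusted p = 0.14), with 50.3 to 83.5 CPM in 4x zT LOF and 43.6 to 50.6 CPM with control MO. At stage 9+ it measured 0 to 1.15 CPM. Reads shared by this pair could have been split or dropped in the counting, so the level of *foxi4.2* at stage 12+ is less certain than at stage 9+.

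Over the 14 poly(A) group means, centered within each experiment, the members followed each other to different degrees. *grhl3*, *grhl1* and *tfap2c* were most alike, with Pearson's r of 0.97 to 0.98 between them. *foxi4.2* followed *tfap2a* (r = 0.73) but not *gata2* (r = -0.02). Within stage 9+ *foxi4.2* and *tfap2a* had r = 0.97 over 8 means, and within the T-box experiment 0.48 over 6 means. These correlations are descriptions over few means that share libraries and stages.

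Of 9858 genes searched, those most like *foxi4.2* were *c15orf39* (r = 0.893), *klf17* (r = 0.892) and *pgm1* (r = 0.837). The most alike were *id3* for *tfap2a* (r = 0.979), *klf5* for *tfap2c* (r = 0.982), *grhl3* for *grhl1* (r = 0.973) and *tfap2c* for *grhl3* (r = 0.979). For *gata2* it was *dll1* (r = 0.968), for *gata3* *pgp* (r = 0.96), for *foxi1* *adat2* (r = 0.949) and for *dlx3* *srf* (r = 0.995).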

How the data were processed

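For the poly(A) libraries, alignment by the authors used STAR 2.5.3a with genome assembly v7.1 and revised v7.2 gene models. The authors deposited raw counts on exons and introns of each gene made with VERSE without regard to strand. For the 4sU experiment the authors deposited counts of read pairs aligned uniquely to 1 gene of the transcriptome with Bowtie2, from ribosomal RNA-depleted RNA. Overlapping, antisense and near-identical genes can share or lose reads in such counting. Symbols came from the 4sU table, and 13394 genes had one.

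Exon counts were scaled by TMM, filtered with filterByExpr and tested with edgeR 4.0.16 (R 4.3.3) with Benjamini-Hochberg adjustment over 16001 genes (stage 9+) or 17188 genes (T-box), called at 0.1, the level the authors used. One fit over 24 libraries served each experiment. The replicates were clutches, with controls collected from the same mothers, and the numbers come from the labels. Deviations from the group mean correlated between same-numbered LOF and control libraries at 0.525 to 0.827 (stage 9+) and 0.543 to 0.831 (T-box), against -0.582 to -0.189 and -0.432 to 0.111 for different numbers. Same-numbered libraries were therefore taken as pairs, though the labels do not state that a number marks 1 clutch with and without the MO. Deviations cancel within a group, which by itself lowers the values for different numbers. The tests have no block, like those of the authors. No library was a copy of another.

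Alternatives were DESeq2 1.42.0, its size factors, no filter, intron counts (1111752 to 4708294 per library), the replicate block, leaving out each replicate, and fits of the compared groups alone. Ratios of 4sU to input counts used DESeq2 size factors, at least 10 input counts and 95% exact binomial intervals. Gene pairs came to 7884062 and 6470826 in the input and 888940 and 1538052 in the 4sU-enriched RNA at stages 8+ and 10+. Groups were taken from the sample labels. All 9 members are named, and from the other lists called genes in order of fold change, of which 1 is not reported here. Most similar genes were ranked by Pearson correlation of log2 CPM with a pseudocount of 0.5, among genes with a mean of at least 50 normalized counts. The members and lists were chosen with earlier results of these data known. The tests were tried on simulated data with known changes before use. No gene coordinates or sequences were used here.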

Additional observations from a re-analysis of the deposited data

Results flagged for a closer look

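In 3 of 54 groups of 4 libraries, the highest library stood apart from the others by Dixon's criterion, which chance reaches in about 5% of groups. These were *tfap2a* with control MO at stage 10+ (351 CPM, replicate 4), *gata2* in the same library (189 CPM), and *tfap2c* in 4x zT LOF at stage 12+ (1767 CPM, replicate 2). Without replicate 4 *gata2* kept its call at stage 10+, and *tfap2a* was not called there with it.

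The effect of 4x zT LOF differed between the stages, by a test of the difference itself, for *foxi4.2* (adjusted p = 2.63e-07), *gata2* (adjusted p = 2.96e-05), *tfap2a* (adjusted p = 0.000483), *grhl1* (adjusted p = 0.000602), *grhl3* (adjusted p = 0.0237) and *tfap2c* (adjusted p = 0.0514). The last was at an adjusted p of 0.103 with DESeq2's size factors.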

How the results depend on the processing

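Of 50 calls on members, the replicate block kept 50, the DESeq2 test 49, DESeq2's size factors 48, no filter 48 and intron counts 32, with 10 lost and 8 reversed. The reversed intron values were 0.17 for *grhl3* (adjusted p = 0.438) and 0.21 for *tfap2a* (adjusted p = 0.423) in 4x zT LOF at stage 11+. With control MO they were -0.33 for *tfap2a* (adjusted p = 0.0983) from stage 10+ to 11+, and -0.30 for *dlx3*, -0.28 for *tfap2c* (adjusted p = 0.0721), -0.27 for *grhl3* (adjusted p = 0.0804), -0.04 for *gata2* and -0.17 for *grhl1* from stage 11+ to 12+. The cause was not tested.

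Against DMSO, the replicate block called 3 members with Wnt lost, 1 with Nodal lost, 2 for Nodal/BMP, 2 for Wnt/Nodal and 1 for all signals. It called 3 in the BMP average and 7 in 4x zT LOF at stage 10+. Intron counts gave 3, 1, 2, 3 and 1 in the same 5 comparisons with DMSO (1.15%, 2.01%, 2.23%, 3.37% and 4.36% of all genes), 4 in the BMP average (0.591%), 5 with control MO from stage 11+ to 12+ (59.5%), and 3 for the stage dependence (7.44%). The DESeq2 test called 2 in Nodal LOF, 2 in Nodal/BMP LOF, 1 in the loss of all signals and 2 in the BMP average (0.412%). Fits of only the groups compared called 0 in Wnt LOF (0.163%), 0 in Wnt/Nodal LOF (1.28%) and 1 in the loss of all signals (1.42%). Of the alternatives added after seeing the data, the Wnt average called 1 member without SB431542 (2.91% of all genes) and 2 with it (1.75%), and the Nodal average 0 with the MO (0.3%). The BMP average called 0 without the MO (0%) and 0 with it (0.0375%), which says nothing of the members. The block within injected and uninjected libraries called 5 members for Nodal and 7 for BMP.

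Leaving out each replicate gave 0 to 1 called members in Wnt LOF (0.0815% to 0.675% of all genes), in Wnt/Nodal LOF (0.608% to 1.95%), in the Nodal average (0.458% to 1.37%) and in the BMP average (0% to 0.151%). It gave 1 to 6 in the Wnt average (2.09% to 9.18%), 1 to 5 at stage 11+ (20.1% to 31.8%), 3 to 5 at stage 12+ (26.8% to 35.2%) and 1 to 4 over the stages (31.6% to 38.6%). The median 4sU ratio of the members was 5.17 at stage 8+ and 3.58 at stage 10+ when scaled by total counts, and 11.1 and 4.98 with a pseudocount of 1 and no minimum. The pseudocount median at stage 8+ is no measure of enrichment. *dlx3* and *gata3*, with 0 pairs in either library, enter it at 11.1, a value set by the size factors alone. The median input change was 2.83 when scaled by totals. At 888940 enriched pairs, *dlx3* and *gata3* were below detection at the MBT.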

Other observations

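In Wnt LOF, averaged over the 4 backgrounds, 6 of 11 neural plate factors fell and none rose, where 5.69% of all genes were called. The anterior neural gene *otx2* fell by 4.93 ± 0.41 (adjusted p = 1.89e-07) and *zic1* fell by 1.43 ± 0.18 (adjusted p = 4.62e-05). In BMP LOF, likewise averaged, *lhx5* was the neural plate factor that rose, by 0.57 ± 0.08 (adjusted p = 0.00522), where 0.0875% of all genes were called. BMP LOF against DMSO alone called 0 of the 11. In 4x zT LOF 6 of 11 neural plate factors rose and 1 fell at stage 11+, where 33.7% of all genes were called. At stage 12+, where 21.4% of all genes were called higher, 5 rose, *lhx5* by 0.98 ± 0.09 (adjusted p = 8.28e-08). *foxj1*, which drives multiciliated cell differentiation, fell by 2.03 ± 0.39 in the Wnt average and by 1.72 ± 0.39 in the Nodal average (adjusted p = 0.00284 and 0.0261). It was 1 of 5 ciliated cell and ionocyte factors called in each average. Wnt LOF and Nodal LOF against DMSO alone called 0 of the 5.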
